A study of Mus musculus with 6 samples.

Results

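The 10 genes described here are the prostaglandin genes Ptgs1, Ptgs2, Ptgds, Ptges, Hpgd, Slco2a1, Ptger2, Ptger3, Ptger4 and Ptgfr, taken by symbol from the 50559 genes listed in each count matrix. All 10 were found in all 6 libraries. The rule names them by symbol, and they were chosen with earlier results of these data known. They were followed through the cell classes of the adult mouse uterine tube (oviduct) and compared between its sections. The tubes came from groups of adult C57BL6 females in estrus, with no genetic or drug treatment named in the labels. The 3 proximal libraries, numbered 2, 3 and 4 in their titles, hold the section toward the uterus. The 3 distal libraries, numbered 1, 2 and 3, hold the section toward the ovary. Each library is a single-cell suspension in which the tissue of 1 section was combined over the mice of a group, so a library, not a cell or a mouse, is the replicate.

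Prostaglandins are short-lived lipid signals made from arachidonic acid, which phospholipases release from membranes. The cyclooxygenases COX-1 (Ptgs1) and COX-2 (Ptgs2) convert it to a shared precursor, and terminal synthases such as Ptgds for prostaglandin D2 and the microsomal enzyme Ptges for prostaglandin E2 finish the product. The transporter Slco2a1 takes prostaglandins up from outside the cell and the dehydrogenase Hpgd inactivates them inside it. Ptger2, Ptger3 and Ptger4 encode the receptors EP2, EP3 and EP4 for prostaglandin E2, and Ptgfr that for prostaglandin F2 alpha. In the oviduct these lipids are known for acting on the tone of the muscle wall.

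After filtering, 18466 cells remained, 2282 proximal and 16184 distal. Median counts of unique molecular identifiers (UMIs, which count RNA molecules) per cell were 730 to 3408.5 in proximal and 2933 to 4638 in distal libraries. Cells were clustered without the genes of the lists used here, and classes were named from marker genes. The defining markers were present: 7 of 7 mesothelial genes in each library with at least 10 mesothelial cells, 12 of 12 ciliated genes in ciliated epithelium, 8 of 8 fibroblast genes in fibroblasts. Any UMI counted as presence, and the same lists named the classes, so this gives no separate support for the names. In smooth muscle 8 of 8 markers were seen in 4 of 5 libraries, with Actg2 at 0 in proximal 3. In non-ciliated epithelium 11 of 11 epithelial markers were seen in 5 of 6 libraries, with Cldn4 at 0 in proximal 2. Libraries shared at most 1.83% of the smaller library's barcodes. Cluster 13, with 584 cells, was left unnamed and is in no class. Its top genes were Dcpp3, Dcpp2 and Dcpp1 together with haemoglobin genes. It held 81 cells of proximal 2, which is 9.83% of that library. The sections drew on different clusters. Epithelial clusters are numbered E1 to E14. E13, led by Serpina1e and Rmst, held 83 of the 86 non-ciliated cells of proximal 3 and 80 of the 120 of proximal 4. E14, led by Serpina1e and Fxyd4, held 88 of the 208 of proximal 2, and neither held more than 7 cells of a distal library. Fibroblasts of proximal 2 lay mostly in cluster 12 (233 of 376), those of proximal 3 in cluster 17 (68 of 132) and those of proximal 4 in cluster 15 (280 of 616), whereas distal fibroblasts lay mostly in clusters 1, 4, 5, 9 and 10. Proximal smooth muscle lay mostly in cluster 22, led by Ctnna3, Mustn1 and Pln (27 of 29 cells in proximal 3 and 38 of 45 in proximal 4), and distal smooth muscle mostly in cluster 3, led by Actg2 and Myh11 (1104 of 1236, 138 of 142 and 380 of 404 in distal 1, 2 and 3). Proximal blood endothelium lay mostly in cluster 20, led by Selp and Flt1 (27 of 33 and 50 of 56 in proximal 3 and 4), and distal blood endothelium mostly in cluster 16, led by Flt1 and Ly6c1 (186 of 275, 18 of 29 and 110 of 162). In both classes section and cluster change together. Libraries differed so much in composition and depth that section and library make-up cannot be fully told apart.

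The sequences around the start of 4 members are shown because the section and class differences below turn on them: both cyclooxygenases, the inactivating enzyme and the transporter. They run from 250 bases before to 30 bases after the gene's RefSeq start in GRCm38.p6, 5′ to 3′ on the gene's strand, which is the plus strand for all 4. The windows are chr2:36230176-36230455 for Ptgs1, chr1:150099781-150100060 for Ptgs2, chr8:56294302-56294581 for Hpgd and chr9:103008237-103008516 for Slco2a1. Capitals mark every match, on either strand, to the 5 motifs searched.
Ptgs1: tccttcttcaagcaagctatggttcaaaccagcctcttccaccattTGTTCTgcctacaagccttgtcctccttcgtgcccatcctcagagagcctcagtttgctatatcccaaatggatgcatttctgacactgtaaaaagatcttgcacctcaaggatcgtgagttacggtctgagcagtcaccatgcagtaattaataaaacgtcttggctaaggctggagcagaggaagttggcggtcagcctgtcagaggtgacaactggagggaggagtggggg
Ptgs2: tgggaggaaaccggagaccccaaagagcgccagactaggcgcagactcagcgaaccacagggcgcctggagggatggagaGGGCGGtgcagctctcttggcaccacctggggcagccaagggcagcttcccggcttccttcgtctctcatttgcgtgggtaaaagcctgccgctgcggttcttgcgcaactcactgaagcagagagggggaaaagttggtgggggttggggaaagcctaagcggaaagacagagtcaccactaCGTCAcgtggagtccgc
Hpgd: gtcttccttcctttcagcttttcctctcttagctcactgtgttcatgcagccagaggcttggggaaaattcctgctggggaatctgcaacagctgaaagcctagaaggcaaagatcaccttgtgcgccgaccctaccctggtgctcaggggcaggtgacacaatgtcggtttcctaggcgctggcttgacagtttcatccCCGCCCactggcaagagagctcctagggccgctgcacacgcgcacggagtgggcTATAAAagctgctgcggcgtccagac
Slco2a1: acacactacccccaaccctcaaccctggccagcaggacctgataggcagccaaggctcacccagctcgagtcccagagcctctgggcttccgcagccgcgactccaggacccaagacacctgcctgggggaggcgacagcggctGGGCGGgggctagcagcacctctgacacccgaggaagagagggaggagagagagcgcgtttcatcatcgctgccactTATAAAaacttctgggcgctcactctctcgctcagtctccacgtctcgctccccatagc
The motifs were the TATA letters TATAAA, the cAMP response element TGACGTCA, its short form TGACG (which lies inside the full element), the GC box GGGCGG and the steroid receptor core TGTTCT. The TATA letters were found in Slco2a1, at position -29, and in Hpgd, at position 5, among the 10 members, and in 13.1% of 32851 windows in the table. Positions count from 1 at the annotated start, so the Hpgd match lies after it. Ptgs2 alone held the cAMP short form, at position 14 and so also after the start, a form found in 19.9% of windows, and no member held the full element, found in 1.74%. The GC box occurred in 7 members (Ptgs2, Ptges, Ptgfr, Ptger3, Hpgd, Slco2a1 and Ptger4) and in 34.7% of windows. The steroid receptor core occurred in Ptgs1, Ptges and Ptger2 and in 17.8% of windows. These are matches of letters and say nothing about binding.

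The members differed by class. In distal libraries mesothelium, the outer lining, was highest for Ptgs1, Hpgd and Ptger3, fibroblasts for Ptgfr and smooth muscle for Ptger2. Non-ciliated epithelium had more Slco2a1 and Ptger4 than fibroblasts or ciliated cells. Levels are given in CPM, the UMIs of a gene divided by all UMIs of a class in a library and scaled to a total of 1000000. Free RNA in a droplet can lend any class a few UMIs, so low levels are not read as expression. CPM depend on where in a transcript the 3′ reads fall, so they are compared across classes for 1 gene and never between genes.

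**Figure D1:**
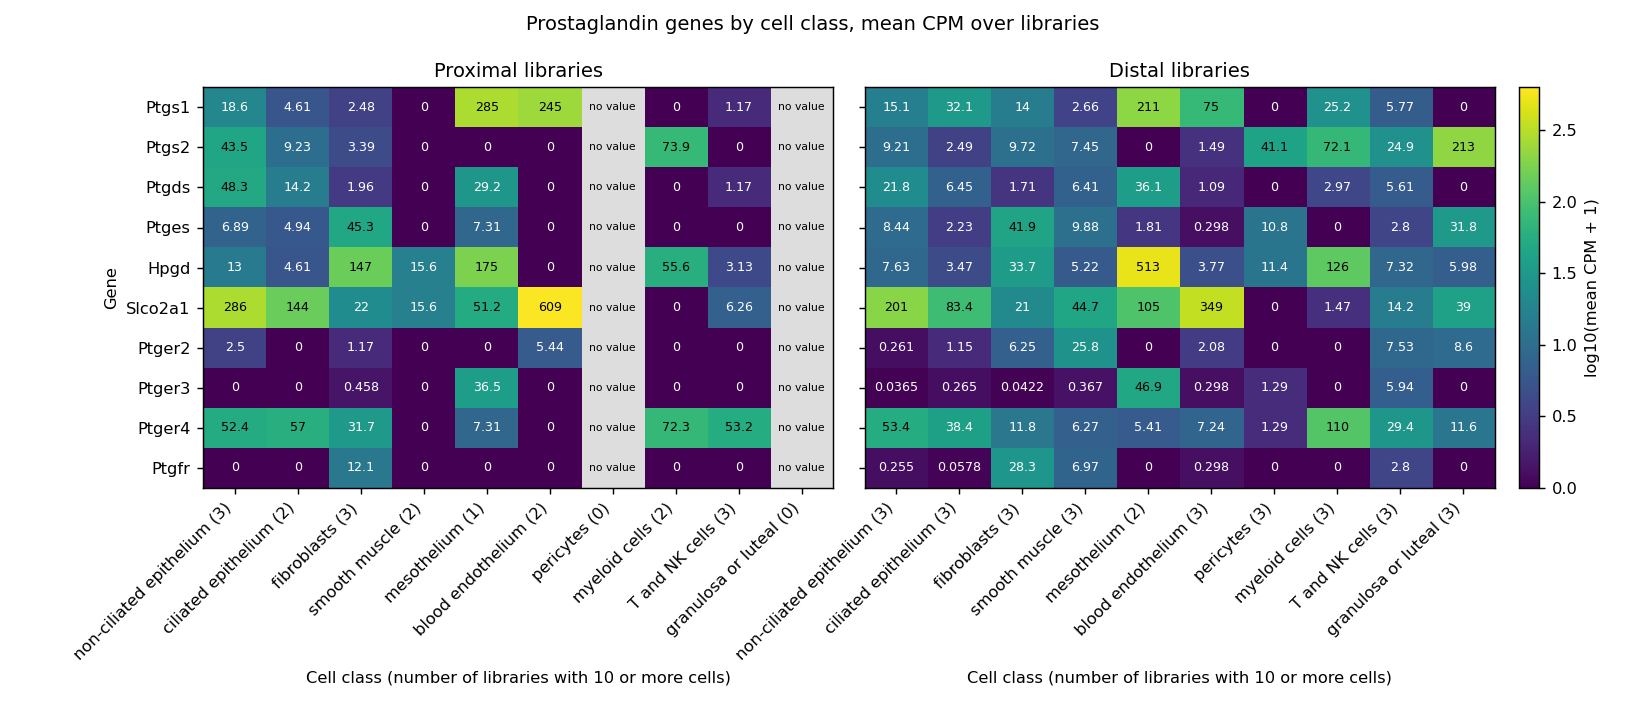
Mean CPM of the 10 genes (vertical axis) in 10 cell classes (horizontal axis) in proximal libraries (left) and distal libraries (right), with the number of libraries that held at least 10 cells of a class; colour is log10 of mean CPM plus 1, grey boxes have no value, and colours are to be compared along a row. Hpgd in fibroblasts is brighter in proximal libraries (147 CPM) than in distal libraries (33.7 CPM), and Ptger3 stands out in mesothelium alone (36.5 CPM proximal, 46.9 CPM distal).

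Ptgs1, the cyclooxygenase found in many resting cells, was highest in mesothelium among the distal classes. It measured 285 CPM, from 39 UMIs, in the mesothelium of proximal 4, the 1 proximal library with at least 10 such cells, and 228 and 195 CPM in that of distal 1 and 3. Distal 1, 2 and 3 had 59.9, 75.0 and 90.1 CPM in blood endothelium and 37.7, 21.9 and 36.6 CPM in ciliated epithelium. The distal ranges of these 3 classes did not overlap.

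Within the epithelium, Ptgs1 was higher in ciliated cells than in non-ciliated cells of the distal libraries, where non-ciliated cells had 17.8, 8.40 and 19.2 CPM in distal 1, 2 and 3. The log2 difference was 0.89 ± 0.19 (standard error; edgeR quasi-likelihood test with the library as a block, Benjamini-Hochberg adjusted p = 0.00133). Among ciliated clusters the distal means ran from 50.8 ± 10.1 CPM (SD, n = 3 libraries) in E4 to 7.39 ± 12.8 CPM in E12, and the ranges of neighbours overlapped at each step between the 12 epithelial clusters. In ciliated cells of the proximal libraries 1 UMI was seen, against 347 UMIs in the distal libraries, a ratio of 0.140 with a 95% counting interval of 0.00353 to 0.783 (the adjusted p by edgeR was 0.211). Proximal ciliated cells lay mostly in E12 (20 of 23 in proximal 2) and E6 (29 of 33 in proximal 4). The distal mean of E6 was 17.4 ± 7.60 CPM (SD, n = 3), and E4 had no proximal cell. Section and cluster therefore change together in this class too.

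In fibroblasts Ptgs1 fell in the proximal section. It measured 1.94, 0 and 5.50 CPM in proximal 2, 3 and 4, from 5, 0 and 4 UMIs, against 11.6, 11.6 and 18.9 CPM in distal 1, 2 and 3, from 92, 142 and 121 UMIs. The measured values did not overlap. The count of 0 in proximal 3 allows up to 31.7 CPM, more than any distal value, so the separation rests on proximal 2 and 4. The log2 fold change, proximal over distal, was -2.34 ± 0.52 (edgeR adjusted p = 0.0399). The call was lost in 7 of 14 settings, among them DESeq2 (adjusted p = 0.0708), and the direction was the same in all 14, with log2 values from -2.82 to -1.83. The distal fibroblast cluster with the most Ptgs1, cluster 9 (led by Cacna1d, Sfrp2 and Rxfp1, 35.9 ± 11.4 CPM, SD, n = 3), had no proximal cell. Cluster 5 had the lowest distal mean at 3.06 ± 1.06 CPM. Cluster 12, the main cluster of proximal 2, ran from 1.35 to 16.5 CPM over 2 distal libraries, from 4 UMIs. The part of cluster make-up in the Ptgs1 difference was not tested.

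In blood endothelium, a comparison added after the data had been seen, Ptgs1 was higher in the proximal section. It measured 294 and 196 CPM in proximal 3 and 4, from 9 and 18 UMIs, against the distal values above, and the groups did not overlap. The sections lay mostly in different endothelial clusters. Distal 1, 2 and 3 had 24.4, 32.7 and 41.7 CPM in cluster 16, which had 12 proximal cells, while in cluster 20 proximal 3 and 4 had 346 and 211 CPM, against 141, 132 and 171 CPM in distal 1, 2 and 3. The log2 fold change over the class was 1.56 ± 0.39 (edgeR adjusted p = 0.0328), and 1 of 2 members tested passed where 8.52% of 4012 genes did (3.66% higher, 4.86% lower). The call did not hold in DESeq2 (0 members), within endothelial cluster 20 (log2 0.72, edgeR adjusted p = 0.278), or without distal 1, proximal 3 or proximal 4. Mesothelial markers summed to 32.7 and 21.7 CPM in these proximal endothelial cells and to 23.2, 31.2 and 28.5 CPM in the distal ones, with Upk3b and Lrrn4 at 0 in all 5.

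Among the distal classes Ptgs2, the inducible cyclooxygenase, was highest outside the tube wall proper: 235, 100.5 and 304 CPM in the granulosa-like or luteal-like cells of distal 1, 2 and 3, a class of 14 to 18 cells per library with no proximal cell. In myeloid cells it measured 98.1, 88.5 and 29.9 CPM in distal 1, 2 and 3, all below the granulosa-like values. Between distal fibroblasts and distal non-ciliated epithelium the log2 difference of 0.03 ± 0.19 did not pass (edgeR adjusted p = 0.913).

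In non-ciliated epithelium Ptgs2 measured 9.42, 64.9 and 56.2 CPM in proximal 2, 3 and 4, from 6, 15 and 35 UMIs, against 13.5, 4.20 and 9.96 CPM in distal 1, 2 and 3. Proximal 3 and 4 lay above all distal libraries and proximal 2 lay among them. The log2 fold change was 1.93 ± 0.58, which did not pass (edgeR adjusted p = 0.0966). With a term for group 2, whose number stands on 1 proximal and 1 distal library, it was 1.85 (edgeR adjusted p = 0.00291), and without proximal 2 it was 2.36 (edgeR adjusted p = 0.00105). Cluster E13 had 64.5 ± 1.9 CPM in proximal 3 and 4 (SD, n = 2), and E14, from proximal 2, had 12.9 CPM. The unnamed cluster 13, outside this class, had 41.8 CPM in proximal 2, from 4 UMIs, and 0 in proximal 4. In distal 1, 2 and 3 that cluster had 2.08, 0 and 5.74 CPM. The 7 cells of distal 1 in E13 had 318 CPM, from 30 UMIs (95% counting interval 214 to 454), above the proximal values of E13. Among distal clusters of at least 10 cells E3 and E10 were highest at 14.3 ± 8.39 and 12.4 ± 5.22 CPM (SD, n = 3 each). The summed level of 18 immediate-early genes, which respond within minutes to stimulation or to tissue dissociation, was 2227, 13243 and 15242 CPM in proximal 2, 3 and 4 and 10134, 8042 and 16831 CPM in distal 1, 2 and 3. In proximal 2, where these genes summed lowest, Ptgs2 was also the lowest of the proximal libraries. The part of these genes, of depth and of cluster make-up in the Ptgs2 values was not tested.

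In fibroblasts Ptgs2 measured 1.94, 0 and 8.24 CPM in proximal 2, 3 and 4, from 5, 0 and 6 UMIs, against 15.3, 4.66 and 9.20 CPM in distal 1, 2 and 3. The groups overlapped, and the log2 fold change of -1.47 ± 0.69 did not pass (edgeR adjusted p = 0.324). The section difference in fibroblasts minus that in non-ciliated epithelium was -2.69 ± 0.55 on the log2 scale (edgeR interaction term, adjusted p = 0.0195). Ptgs2 was the 1 of 9 members that passed this test, which was added after the data had been seen and which 1.88% of 15828 genes passed. The call was lost without distal 1 (edgeR adjusted p = 0.0975) and without proximal 4 (0.183).

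**Figure D2:**
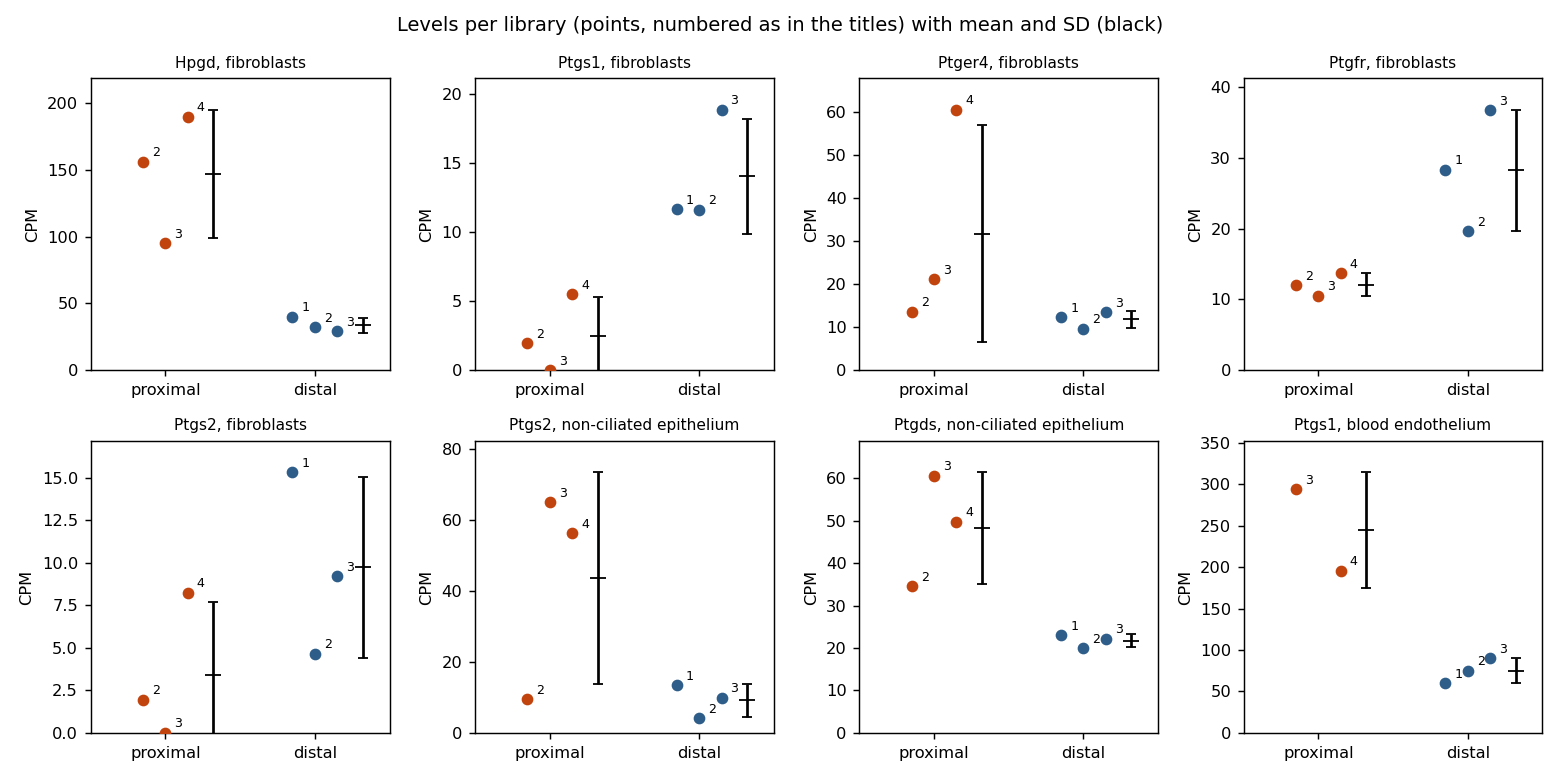
CPM (vertical axis, from 0) of 6 genes in 8 panels, each a gene in a class, with 1 point per library of at least 10 cells, numbered as in the titles, proximal at left and distal at right; black bars are mean and SD, cut at 0. The proximal and distal points do not overlap for Hpgd, Ptgs1, Ptger4 and Ptgfr in fibroblasts, Ptgds in non-ciliated epithelium and Ptgs1 in blood endothelium, and they overlap for Ptgs2 in both classes.

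Ptgds, which makes prostaglandin D2, was seen mainly in epithelium and mesothelium. It measured 34.5, 60.6 and 49.8 CPM in the non-ciliated epithelium of proximal 2, 3 and 4, against 23.0, 20.002 and 22.2 CPM in distal 1, 2 and 3. The groups did not overlap, and the log2 fold change of 0.95 ± 0.33 did not pass in edgeR (adjusted p = 0.150), while DESeq2 gave an adjusted p of 0.0278. Distal mesothelium had 21.7 and 50.5 CPM, a range that overlapped that of distal non-ciliated epithelium. Distal fibroblasts had 1.64, 1.15 and 2.34 CPM, a log2 difference from non-ciliated epithelium of -3.78 ± 0.25 (edgeR adjusted p = 1.27e-07). The proximal clusters E13 and E14 had 58.1 ± 4.75 CPM (SD, n = 2) and 64.7 CPM (n = 1). Cluster E5 (led by Cdh1, Ppp2r2b and Krt78) was the highest distal epithelial cluster at 48.0 ± 17.3 CPM (SD, n = 3), clear of the next, E1, at 24.7 ± 1.29 CPM.

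Ptges, the microsomal prostaglandin E synthase, was higher in fibroblasts than in non-ciliated epithelium. Granulosa-like or luteal-like cells of distal 1, 2 and 3 had 12.4, 26.8 and 56.2 CPM, from 1, 4 and 5 UMIs, a range that overlapped that of distal fibroblasts. In fibroblasts it measured 27.6, 73.9 and 34.35 CPM in proximal 2, 3 and 4, the second from 7 UMIs, against 37.3, 40.9 and 47.5 CPM in distal 1, 2 and 3. The groups overlapped, and the log2 fold change was -0.37 ± 0.29 (edgeR adjusted p = 0.571). It was even across the 6 distal fibroblast clusters, whose means lay between 37.0 and 45.3 CPM. Distal non-ciliated epithelium had 8.41, 9.24 and 7.66 CPM, and the fibroblast level was higher by 2.25 ± 0.18 on the log2 scale (edgeR adjusted p = 8.71e-07).

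Hpgd, which inactivates prostaglandins, was higher in proximal fibroblasts and had the lowest adjusted p of any member between sections. Fibroblasts had 156, 94.97 and 189.6 CPM in proximal 2, 3 and 4, from 402, 9 and 138 UMIs, against 40.0, 32.2 and 29.0 CPM in distal 1, 2 and 3, from 316, 394 and 186 UMIs. The lowest proximal value was over the highest distal value. The log2 fold change was 2.07 ± 0.31 (edgeR adjusted p = 0.0120). Hpgd and Ptgs1 were the 2 members of 8 tested that passed in fibroblasts, where 2.86% of 13741 genes did, 1.96% higher and 0.895% lower. The median log2 change was -0.79 over the 8 members and -0.03 over all genes tested.

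The Hpgd difference had the same direction within clusters 4, 5 and 12, the fibroblast clusters in which it could be tested. In cluster 4 (led by Htra3 and Nrxn3) proximal 2, 3 and 4 averaged 143 ± 40.9 CPM, against 29.0 ± 8.86 CPM in the 3 distal libraries (SD, n = 3 each), with a log2 fold change of 2.14 (edgeR adjusted p = 0.0482) that rests on 14 proximal UMIs. In cluster 5 (led by Mgp, Clec3b and Inmt) the means were 153 ± 79.4 CPM in 2 proximal libraries, against 84.8 ± 8.42 CPM in 3 distal libraries, and the log2 fold change of 1.17 did not pass (edgeR adjusted p = 0.0535). In cluster 12 (led by Ly6h and Spon1) they were 174 ± 10.7 and 46.0 ± 18.5 CPM (SD, n = 2 each), and 1.66 did not pass either (edgeR adjusted p = 0.269). Clusters 15 and 17, with under 2 distal libraries of at least 10 cells, gave no test. In cluster 15 (led by Pcdh9 and Lum) proximal 2, 3 and 4 had 114, 182 and 348 CPM, from 4, 4 and 101 UMIs, against 198 CPM in distal 1, from 7 UMIs, so distal 1 lay among the proximal libraries. In cluster 17 (led by Apod and Pi16), the main cluster of proximal 3, they had 27.3, 20.2 and 45.2 CPM, from 6, 1 and 11 UMIs, against 40.0, 32.2 and 29.0 CPM in the fibroblasts of distal 1, 2 and 3 as a whole. Over the class and these 3 clusters, the direction was the same in all 17 settings tried, with log2 values from 1.17 to 2.34, and 13 passed; without distal 1 the adjusted p was 0.0618 and without distal 3 it was 0.0549, both by edgeR. Mesothelium and myeloid cells hold much Hpgd, so their markers in fibroblasts were summed. The 7 mesothelial markers gave 62.5, 52.8 and 157 CPM in proximal 2, 3 and 4 and 65.3, 28.3 and 55.6 CPM in distal 1, 2 and 3, with Lrrn4 and Upk1b at 0 in all 6 and Upk3b at 0 in the proximal ones. The 9 myeloid markers gave 16.7, 31.7 and 50.8 CPM in the proximal libraries and 38.4, 17.3 and 27.7 CPM in the distal ones. In both lists proximal 4 was highest, above every distal library, and proximal 3 lay within the distal range. Proximal 2 lay within it for the mesothelial list and below it for the myeloid list. The part of mesothelial and myeloid cells in the Hpgd values was not tested.

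**Figure D3:**
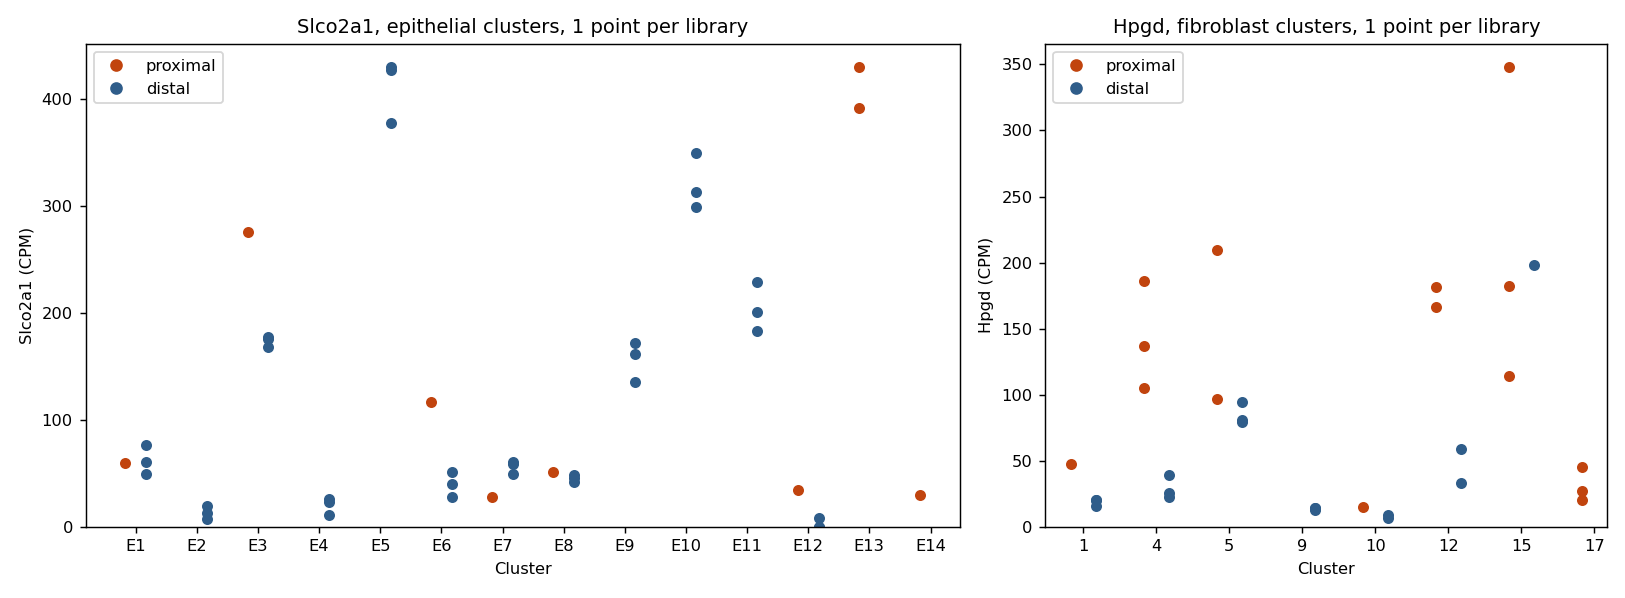
CPM per library (vertical axis, from 0; 1 point per library with at least 10 cells of the cluster) of Slco2a1 in the 14 epithelial clusters (left panel) and of Hpgd in the fibroblast clusters (right panel), proximal points left of distal ones. Slco2a1 is highest in E5 (412 CPM distal) and E13 (411 CPM proximal), and Hpgd lies higher in proximal than in distal libraries in clusters 4, 5 and 12 by their means, while in cluster 15 the distal point (198 CPM) lies among the proximal ones.

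In mesothelium Hpgd measured 175 CPM in proximal 4, from 24 UMIs, against 469 and 556 CPM in distal 1 and 3. The distal mesothelial values were the highest of any distal class, clear of myeloid cells at 126 ± 35 CPM and of fibroblasts at 33.7 ± 5.6 CPM (SD, n = 3 each). The ratio of pooled proximal to pooled distal mesothelium was 0.352 (95% counting interval 0.221 to 0.539). With 1 proximal library no test was possible, and the interval covers counting error alone. This direction is opposite to that in fibroblasts. In epithelium Hpgd was low, at 6.28, 8.66 and 24.1 CPM in non-ciliated cells of proximal 2, 3 and 4 and 11.5, 3.53 and 7.88 CPM in those of distal 1, 2 and 3, and the log2 fold change of 0.69 ± 0.58 did not pass (edgeR adjusted p = 0.595).

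Slco2a1, the uptake transporter, had the most UMIs of any member (8345) and divided the epithelium. In distal 1, 2 and 3 it measured 41.7, 69.5 and 139 CPM in ciliated epithelium, against 201.5, 149 and 252 CPM in non-ciliated epithelium. The log2 difference, ciliated over non-ciliated, was -1.60 ± 0.27 (edgeR adjusted p = 0.000201). The 12 distal epithelial clusters ran from 412 ± 29.2 CPM in E5 and 321 ± 26.4 in E10 (led by Slc6a2, Hp and Lcn2), through 174 ± 4.74 in E3 and 157 ± 18.8 in E9, to 62.3 ± 13.7 in E1 (led by S100b and Upk1a) and 2.63 ± 4.56 in the ciliated E12 (SD, n = 3 each). E5, E10, E11 and E3 did not overlap one another, while E3 overlapped E9 and E1 overlapped E7. The ciliated cluster E11, with 204 ± 23.1 CPM, also had the highest median depth of the epithelial clusters (16897 UMIs per cell), against 5983 in E5. In cells of 2000 to 6000 UMIs alone, E5 kept 384 ± 11.9 CPM and E10 347 ± 39.2 (SD, n = 2 each), and E1 63.7 ± 14.1 (SD, n = 3). In that window E11 had 187 CPM in distal 3, from 12 UMIs, and no value in another library. The ciliated clusters E2, E4 and E6 had distal means of 5.95, 13.8 and 30.2 CPM there (n = 3 each).

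Between sections the epithelial Slco2a1 values split the proximal libraries: 65.95, 424 and 368 CPM in proximal 2, 3 and 4, against the distal values above. Proximal 2 lay below and proximal 3 and 4 lay above all distal libraries. Their log2 fold change was 0.25 ± 0.56 (edgeR adjusted p = 0.860), and it turned to -0.03 with a term for group 2. By cluster, Slco2a1 had 411 ± 27.3 CPM in E13 (SD, n = 2, proximal 3 and 4) and 30.2 CPM in E14 (proximal 2). In ciliated epithelium it measured 168 and 120.0 CPM in proximal 2 and 4, from 17 and 13 UMIs, and in fibroblasts 25.2, 10.6 and 30.2 CPM in proximal 2, 3 and 4, against 12.02, 34.6 and 16.4 CPM in distal 1, 2 and 3. The log2 fold changes of 0.68 ± 0.57 and 0.20 ± 0.45 did not pass (edgeR adjusted p = 0.589 and 0.884). In blood endothelium Slco2a1 measured 490 and 728 CPM in proximal 3 and 4, against 268, 462 and 315 CPM in distal 1, 2 and 3. A log2 fold change of 0.82 ± 0.33 did not pass (edgeR adjusted p = 0.141), and within cluster 20 it was 0.09 (edgeR adjusted p = 0.905). The distal endothelial range was the highest of any distal class and did not overlap that of distal non-ciliated epithelium.

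Among the receptors, Ptger2 (EP2) was highest in distal smooth muscle. It measured 21.7, 34.5 and 21.3 CPM in the smooth muscle of distal 1, 2 and 3, against 5.94, 5.65 and 7.17 CPM in distal fibroblasts, with no overlap. The log2 difference was 1.94 ± 0.23 (edgeR adjusted p = 1.53e-06). Within distal fibroblasts cluster 9 stood clear of the rest with 18.9 ± 3.02 CPM, the next being cluster 1 with 6.72 ± 2.43 (SD, n = 3 each). In fibroblasts of proximal 2, 3 and 4 Ptger2 measured 0.776, 0 and 2.75 CPM, from 4 UMIs in all. These measured values lay below every distal library. The count of 0 in proximal 3 allows up to 31.7 CPM, and the counting interval of proximal 4 reaches 9.93 CPM. Both exceed every distal value, so the separation rests on proximal 2. Cluster 9 had no proximal cell, and cluster 12, the main cluster of proximal 2, had 1 UMI over 2 distal libraries. The part of cluster make-up in this difference was not tested. The log2 fold change, proximal over distal, of -2.34 ± 0.61 did not pass (edgeR adjusted p = 0.0701), and with a term for group 2 it was -2.30 (edgeR adjusted p = 0.0366). Proximal smooth muscle, 29 cells in proximal 3 and 45 in proximal 4, had 0 UMIs of Ptger2, which allows up to 37.0 CPM, more than any distal value, so a section difference was not detectable at this depth. The sections also held different muscle clusters: all distal UMIs of the class lay in cluster 3 (23.3, 34.9 and 22.5 CPM in distal 1, 2 and 3), and cluster 22, which holds most proximal muscle cells, had 0 UMIs in the proximal and in the distal libraries, which in distal 1 allows up to 7.63 CPM. Section and muscle cluster cannot be told apart here.

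Ptger3 (EP3) was rare, with 38 UMIs in the series, and most lay in mesothelium. It measured 36.5 CPM in proximal 4, from 5 UMIs, and 57.8 and 36.1 CPM in distal 1 and 3, from 16 and 5 UMIs. Its mean was below 6 CPM in every other distal class. Mesothelium of distal 1 and 3 had 21 UMIs, against 1 UMI in the fibroblasts of the same libraries, a ratio of 724 with a 95% counting interval of 116 to 29937.

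Ptger4 (EP4) was broad. In distal libraries it was highest in myeloid cells, at 80.2, 70.8 and 179 CPM, then in non-ciliated epithelium, at 53.6, 50.1 and 56.6 CPM, and in ciliated epithelium, at 33.3, 42.8 and 39.0 CPM, and these ranges did not overlap. In non-ciliated epithelium the proximal values of 44.0, 34.6 and 78.7 CPM overlapped the distal ones, with a log2 fold change of -0.14 ± 0.38 (edgeR adjusted p = 0.892). In fibroblasts it measured 13.6, 21.1 and 60.5 CPM in proximal 2, 3 and 4, against 12.3, 9.66 and 13.4 CPM in distal 1, 2 and 3. The groups did not overlap by a narrow margin, and the log2 fold change of 1.27 ± 0.44 did not pass (edgeR adjusted p = 0.159). It was 0.33 without proximal 4, and 1.26 with a term for group 2 (edgeR adjusted p = 0.0220). Ptger4 overlaps Ttc33 on the opposite strand in the GENCODE vM21 annotation, and whether the counting used strand is not given in the sources used here, so a share of its UMIs could be Ttc33's.

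Ptgfr, the prostaglandin F2 alpha receptor, was highest in fibroblasts, with less in smooth muscle. Distal smooth muscle had 8.26, 5.31 and 7.35 CPM, against 28.3, 19.6 and 36.8 CPM in distal fibroblasts, and distal non-ciliated epithelium had 6 UMIs in all. The log2 difference was -1.96 ± 0.21 for smooth muscle over fibroblasts (edgeR adjusted p = 3.63e-07) and 6.81 ± 0.33 for fibroblasts over non-ciliated epithelium (edgeR adjusted p = 1.52e-08). Proximal fibroblasts had 12.03, 10.6 and 13.7 CPM, the second from 1 UMI, all below the distal ones. The log2 fold change, proximal over distal, of -1.21 ± 0.34 did not pass (edgeR adjusted p = 0.0872). It was -1.08 with a term for group 2 (edgeR adjusted p = 0.0363) and 0.19 within cluster 5 (edgeR adjusted p = 0.975).

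**Figure D4:**
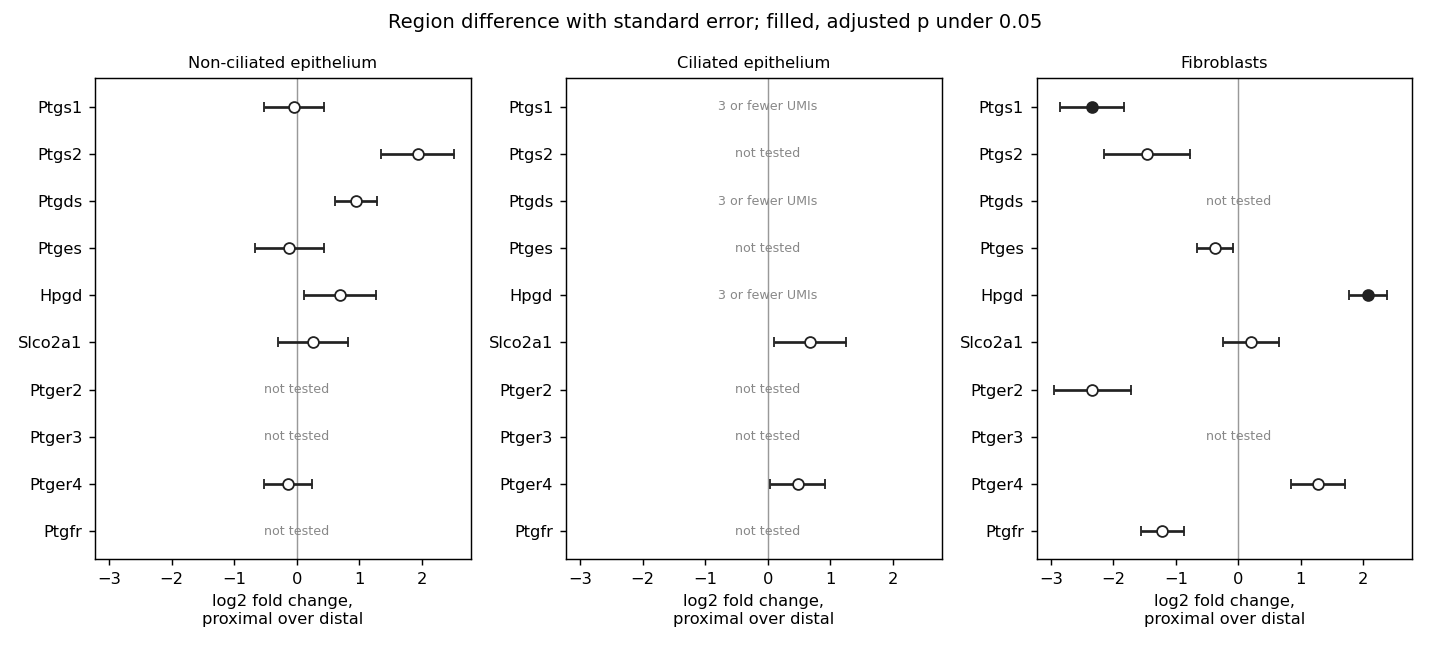
Log2 fold change, proximal over distal (horizontal axis), with its standard error for the 10 genes (vertical axis) in non-ciliated epithelium, ciliated epithelium and fibroblasts; filled points passed an edgeR adjusted p under 0.05. Hpgd (2.07) and Ptgs1 (-2.34) in fibroblasts are the only filled points.

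Counted over the members, 0 of 7 tested passed between sections in non-ciliated epithelium by edgeR, where 3.65% of 12959 genes did (2.65% higher, 1% lower); 2 had an unadjusted p under 0.05 and DESeq2 called 1. In ciliated epithelium 0 of 5 passed in edgeR, where 0.401% of 12981 genes did (0.208% higher, 0.193% lower), with 1 unadjusted p under 0.05 and 0 calls by DESeq2. In smooth muscle 0 of 2 passed in edgeR, where 13% of 9264 genes did (4.79% higher, 8.17% lower), with 1 unadjusted p under 0.05 and 0 calls by DESeq2. That comparison sets mostly cluster 22 against mostly cluster 3. Proximal smooth muscle had at most 2 UMIs of any member, so little could be seen there.

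Between classes most genes differ, and the members' counts are read against that. In distal fibroblasts against distal non-ciliated epithelium 7 of 9 members passed, 4 higher (Ptges, Hpgd, Ptger2 and Ptgfr) and 3 lower (Ptgds, Slco2a1 and Ptger4), where 67% of 17183 genes did (33.5% higher, 33.6% lower). In ciliated against non-ciliated epithelium 7 of 7 passed, with Ptgs1 higher and 6 lower, where 56.6% of 16116 genes did (29.2% higher, 27.4% lower). In smooth muscle against fibroblasts 8 of 9 passed, 3 higher (Ptgds, Slco2a1 and Ptger2) and 5 lower, where 42% of 15369 genes did (20.3% higher, 21.7% lower). In mesothelium against fibroblasts, from distal 1 and 3, 8 of 10 passed, 5 higher and 3 lower, where 24.2% of 13464 genes did (9.59% higher, 14.6% lower). The mesothelial differences were 3.63 ± 0.28 for Ptgs1, 3.62 ± 0.21 for Hpgd, 3.81 ± 0.78 for Ptgds and 2.59 ± 0.38 for Slco2a1 on the log2 scale. Ptges had 1 mesothelial UMI, a ratio of 0.0575 (95% counting interval 0.00145 to 0.321), and Ptgs2 and Ptgfr had none, which makes them at least 1.74-fold and 4.45-fold lower there than in fibroblasts. Some calls were lost in other settings. Against non-ciliated epithelium, ciliated Hpgd was lost in 3 of 8 settings (edgeR or DESeq2 adjusted p up to 0.207) and Ptger4 without distal 1 (edgeR adjusted p = 0.0757). Against fibroblasts, smooth muscle Ptger4 was lost in 4 of 8 settings (edgeR or DESeq2 adjusted p up to 0.118), Slco2a1 with no library block (edgeR adjusted p = 0.219) and Ptgds without distal 1 (edgeR adjusted p = 0.0639). The classes were rebuilt from these data, so these p-values describe the classes.

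**Figure D5:**
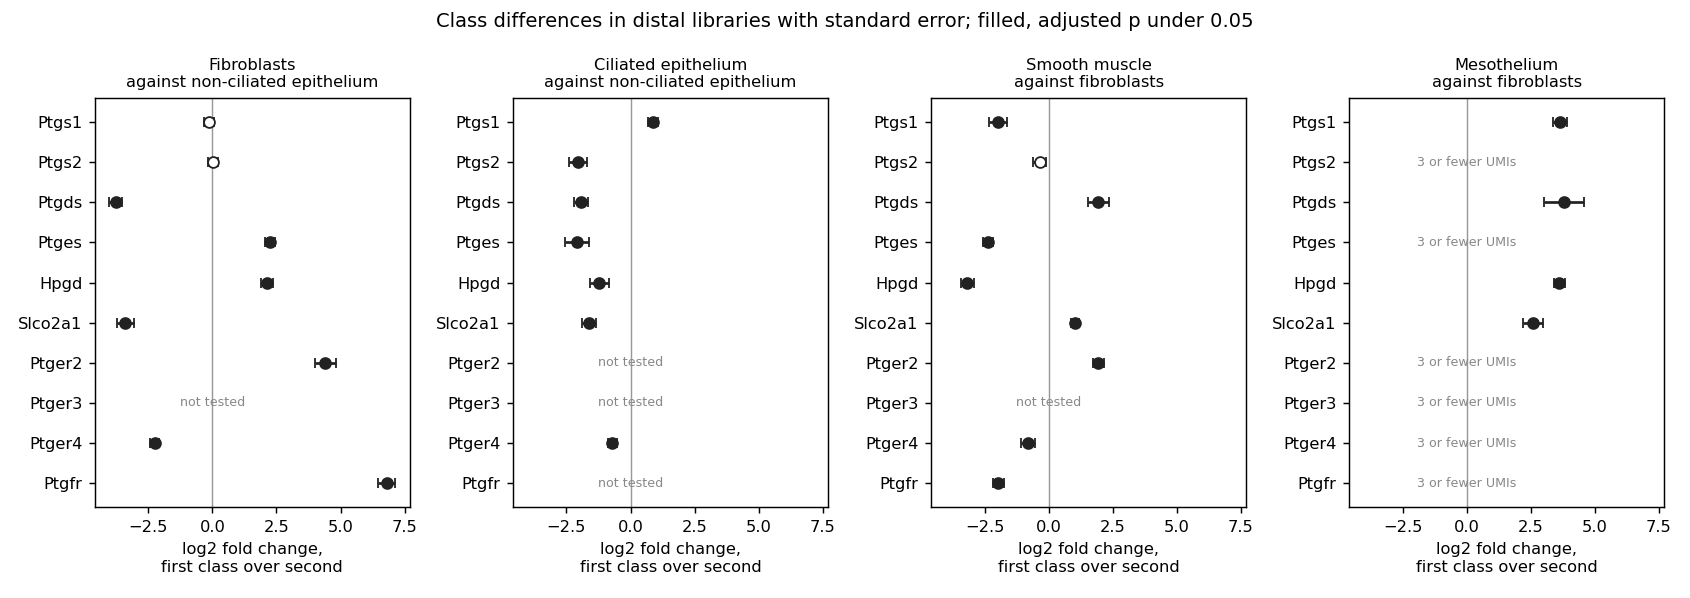
Log2 fold change, first class over second (horizontal axis), with its standard error for the 10 genes (vertical axis) in 4 comparisons within distal libraries; filled points passed an edgeR adjusted p under 0.05, and genes with 3 or fewer UMIs in a class are named without a point. Fibroblasts lie above non-ciliated epithelium for Ptgfr (6.81) and Ptger2 (4.40) and below it for Ptgds (-3.78) and Slco2a1 (-3.39).

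The other genes of the pathway were counted in the same comparisons. Between sections 0 of 11, 0 of 11 and 0 of 12 release and synthesis genes passed in edgeR in non-ciliated epithelium, ciliated epithelium and fibroblasts, with 1, 2 and 2 unadjusted p under 0.05 and 1, 0 and 0 calls by DESeq2. None of 6, 6 and 7 other breakdown and transport genes passed, nor of 2, 2 and 6 other receptors, with unadjusted p under 0.05 for 0, 0 and 0 of the first and 0, 1 and 1 of the second, and with 0 calls by DESeq2. In smooth muscle Akr1c14, an aldo-keto reductase, had 1 UMI in the proximal libraries, against 1029 UMIs in the distal libraries, a ratio of 0.0905 with a 95% counting interval of 0.00229 to 0.506 (edgeR adjusted p = 0.000150). The distal UMIs lay almost all in muscle cluster 3 (593, 216 and 213 UMIs, or 117, 290 and 165 CPM, in distal 1, 2 and 3). In cluster 22, which holds most proximal muscle cells, Akr1c14 had 0 UMIs in proximal 3 and 4 and 7, 0 and 0 in distal 1, 2 and 3, too few to test, so section and muscle cluster cannot be told apart. It was the 1 gene of these lists to pass, of 8 release and synthesis genes, 5 breakdown and transport genes and 3 receptors tested there.

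In distal fibroblasts against distal non-ciliated epithelium 4 of 13 release and synthesis genes were higher and 7 lower, and 6 of 7 other receptors were higher and 1 lower. The genes named next were chosen after their values were seen. Ptgis, the prostacyclin synthase, had 101 ± 12.9 CPM in fibroblasts and 0.660 ± 0.158 CPM in non-ciliated epithelium (SD, n = 3 each), a log2 difference of 7.21 ± 0.25. Hpgds, the second prostaglandin D synthase, had 3.61 ± 1.15 CPM in fibroblasts and 388 ± 45.4 CPM in non-ciliated epithelium, a log2 difference of -6.85 ± 0.29. Ptgir, the prostacyclin receptor, had 214 UMIs in fibroblasts and 1 UMI in non-ciliated epithelium, a ratio of 203 with a 95% counting interval of 36.1 to 8060. The oxytocin receptor Oxtr was higher in fibroblasts by 6.44 ± 0.38 on the log2 scale. In smooth muscle the thromboxane receptor Tbxa2r was higher than in fibroblasts by 1.94 ± 0.23 and Ptger1 (EP1) by 1.41 ± 0.25, whereas Oxtr was lower by -5.08 ± 0.36. Ptgis was higher still in mesothelium, at 504 ± 131 CPM in 2 distal libraries, a log2 difference from fibroblasts of 2.13 ± 0.20. All 8 differences passed in edgeR, with the highest adjusted p at 0.000149.

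The genes whose distal class means most resembled those of each member were ranked by Pearson's r of log2(CPM + 5) over 11 classes, which share their libraries. Ptgfr was nearest to Car8 (r = 0.980) and A830012C17Rik (0.973). Ptgds was nearest to 6030407O03Rik (0.955), Cldn10 (0.947) and Pla2g5 (0.943). Ptger4 was nearest to Gm41461 (0.949), Ptges to Gm12248 (0.941), Slco2a1 to Arhgef5 (0.936) and Hpgd to Arhgap22 (0.927). Ptgs1, Ptgs2 and Ptger2 were nearest to 4933440N22Rik (0.913), Dok1 (0.911) and Gm30440 (0.912). Ptger3, with 38 UMIs, was not ranked.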

How the data were processed

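Single cells of the uterine tube were profiled with the 10x Genomics 3′ v2 droplet assay. The deposited matrices hold whole UMI counts per gene and barcode, written by Cell Ranger 7.0.0 per the file headers. Cell Ranger 6.1.2 and the build mm39 stand in the submitters' processing notes. The 6 matrices hold 20731 barcodes and 91560090 UMIs. Library totals were 5633091, 426707 and 1978458 UMIs in proximal 2, 3 and 4 and 32488145, 24175396 and 26858293 in distal 1, 2 and 3, so the proximal values are less precise. Intervals and floors (3 counts for a count of 0) cover counting error only.

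Barcodes with under 500 UMIs, under 250 genes or over 20% mitochondrial UMIs were removed (1447), as were 818 barcodes with the highest simulated doublet scores (a share in proportion to the library's barcodes). Cells were scaled to 10000 UMIs and clustered by the Leiden method (2000 variable genes, 30 components, or 20 in the epithelium, 15 neighbours, resolution 1, seed 1), leaving out the members and the pathway and immediate-early lists. A cluster was named from at least 3 markers present in 20% of its cells and from its top 10 genes. Counts were summed per library and class, with at least 10 cells, and tested with edgeR's quasi-likelihood test, trimmed-mean scaling, its filter on low counts (minimum count 10, minimum total 15) and Benjamini-Hochberg adjustment at 0.05 over all genes tested. DESeq2, other scaling and filters, blocks by group number, thinned distal counts, a 10% mitochondrial limit and leaving out each library were alternatives. A self-test on simulated counts ran after the fits.

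The titles and the descriptions of the libraries give distal 3 different group numbers, 3 and 4. They give group 2 alone the same number in both sections, so sections were compared without a block. The labels do not say how many mice a group held. The p-values measure the spread between these libraries.

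The members and lists were chosen with earlier results of these data known. The genes named include the 10 members, the genes of the other lists that passed between sections (at most 8 in each direction), and up to 3 genes most alike each member with at least 200 UMIs. Ptgis, Hpgds, Ptgir, Oxtr, Tbxa2r and Ptger1 were named for differences between classes and were chosen after their values were seen. The comparison in blood endothelium, the test of the difference between fibroblasts and non-ciliated epithelium, the fits within clusters, the term for group 2 and the depth window were added after the data had been seen. Sequences around gene starts are from RefSeq (GRCm38.p6), and the overlap with antisense genes from GENCODE vM21. Versions were Python 3.11.15, scipy 1.17.1, scikit-learn 1.9.0, python-igraph 0.11.9, leidenalg 0.10.2, R 4.3.3, edgeR 4.0.16 and DESeq2 1.42.0.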

Additional observations from a re-analysis of the deposited data

Results flagged for a closer look

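The section difference of Ptgs2, the inducible cyclooxygenase, was not the same in fibroblasts as in non-ciliated epithelium. In fibroblasts it was -1.47 ± 0.69 on the log2 scale, proximal over distal, and in non-ciliated epithelium 1.93 ± 0.58. The difference of these differences, from 1 model over both classes, was -2.69 (edgeR adjusted p = 0.0195). Leaving out each library in turn gave -3.04 to -2.53, with adjusted p from 0.00530 to 0.183 by edgeR, and the call was lost without distal 1 and without proximal 4. The cause was not tested.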

How the results depend on the processing

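Among the members, 252 of 285 values kept their direction and their side of the threshold under the other settings and 13 reversed. With 1 library left out 153 of 185 did and 11 reversed. No cause was tested. Members called, 0 in non-ciliated epithelium, became 1 with DESeq2, 1 with no filter on low counts, and 0 to 2 with 1 library left out (2 without proximal 2). In fibroblasts 2 became 1 with DESeq2, 5 with no filter, 1 with thinned distal counts, 1, 0 and 0 within clusters 4, 5 and 12, and 0 to 2 with 1 library left out. In blood endothelium 1 became 0 with DESeq2, 0 within cluster 20 and 0 to 2 with 1 library left out, and for the difference between classes 1 became 0 to 2. Members called in ciliated epithelium and smooth muscle stayed at 0 in every setting.

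Genes called in all moved more. In non-ciliated epithelium 473 became 1209 with DESeq2, 1370 with no filter, 87 with thinned counts and 6 (without distal 3) to 3229 (without proximal 2). In ciliated epithelium 52 became 590 with DESeq2, 752 with no filter, 89 with thinned counts, 19 at the 10% mitochondrial limit and 0 to 65 with 1 library left out. In fibroblasts 393 became 1357 with no filter, 155 with thinned counts, 44, 109 and 29 within clusters 4, 5 and 12 and 28 (without distal 1) to 1966 (without proximal 2). In smooth muscle 1201 became 387 with thinned counts, 75 within cluster 22 and 223 to 1137 with 1 library left out. In blood endothelium 342 became 133 within cluster 20 and 27 to 428, and for the difference between classes 297 became 116 to 549. Smooth muscle against fibroblasts gave 4227 with DESeq2 and 4229 to 6703 with 1 library left out, against 6448, and mesothelium against fibroblasts 1481 with DESeq2, against 3263.

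With a block for group 2 the members called were 1 in non-ciliated epithelium and 5 in fibroblasts, and all genes called 1700, 130 and 1479 in non-ciliated epithelium, ciliated epithelium and fibroblasts. A block by description number gave 180 in ciliated epithelium, and no block gave 4100 in smooth muscle against fibroblasts. Deviations of proximal 2 and distal 2 from their section means correlated at 0.551 in non-ciliated epithelium and 0.358 in fibroblasts, those of proximal 3 and distal 3 at 0.319 and 0.113, and those of proximal 4 and distal 3 at 0.362 and 0.0487. Values that reversed with a block were Ptgs1 (0.0560, title numbers), Ptges (0.11, description numbers) and Slco2a1 (-0.44, -0.47 and -0.0346 by title, description and group 2) in non-ciliated epithelium, Slco2a1 in fibroblasts (-0.50 and -0.00764 by title and description) and, with no block, Ptgs2 in fibroblasts against non-ciliated epithelium (-0.0252). None of these passed the threshold.

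Other reversed log2 values were 0.000636 for Ptgs1 in non-ciliated epithelium at the 10% limit, -1.37 and -0.30 for Slco2a1 in fibroblasts within clusters 5 and 12, 0.19 for Ptgfr within cluster 5, and -0.65 for Ptgs2 in fibroblasts against non-ciliated epithelium with all 6 libraries. With 1 library left out, values in non-ciliated epithelium ran from -0.38 to 0.22 for Ptgs1, -0.42 to 0.17 for Ptges, -0.21 to 0.99 for Hpgd, -0.11 to 0.65 for Slco2a1 and -0.51 to 0.0516 for Ptger4. Slco2a1 in fibroblasts ran from -0.11 to 0.79, and in fibroblasts against non-ciliated epithelium Ptgs1 ran from -0.33 to 0.15 and Ptgs2 from -0.0510 to 0.10. Not run were the section alternatives in mesothelium (1 proximal library), the title block in ciliated epithelium, both number blocks in smooth muscle and leaving libraries out of the mesothelial class comparison. Depth limits the proximal libraries most, where smooth muscle of 2 libraries held 81168 UMIs.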

Other observations

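Immediate-early genes, which respond within minutes to stimulation or tissue dissociation, had a higher summed level in proximal smooth muscle. Their summed level was 27321 and 26953 CPM in proximal 3 and 4, against 11459, 7889 and 13560 CPM in distal 1, 2 and 3, and the groups did not overlap. Proximal muscle cells lay mostly in cluster 22 and distal ones mostly in cluster 3, so section and muscle cluster change together. Of 15 tested, 5 rose and 0 fell in edgeR, where 4.79% of all genes rose: Nr4a1 (log2 2.05 ± 0.35), Nr4a2 (1.64 ± 0.34), Egr1 (1.60 ± 0.35), Fosb (1.26 ± 0.35) and Zfp36 (0.97 ± 0.35). DESeq2 called 3 of 18. Within cluster 22 the sums were 27098 and 28220 CPM in proximal 3 and 4, against 15094, 11461 and 23815 CPM in distal 1, 2 and 3, of which distal 2 had 4 cells, and 1 of 12 passed in edgeR, Nr4a1 (1.39 ± 0.29, adjusted p = 0.0228). In blood endothelium 2 of 13 rose, Ier3 (1.21 ± 0.33) and Nr4a2 (1.10 ± 0.27), and within endothelial cluster 20 0 of 13 passed in edgeR, with 4 unadjusted p under 0.05. In non-ciliated epithelium, ciliated epithelium and fibroblasts 0 of 18, 18 and 17 passed in edgeR, with an unadjusted p under 0.05 for 1, 5 and 6, and DESeq2 called 1, 2 and 3. Ptgs2, itself known as an immediate-early gene, had 0 UMIs in proximal smooth muscle. At this depth a count of 0 allows a level above that of every distal smooth muscle library. Whether Ptgs2 differed between sections there was therefore not detectable.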
